A study of Rattus norvegicus with 31 samples.

Results

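The effect of diet on gene expression was compared between brown adipose tissue (BAT) and liver of the same 9 rats. All 18 arrays that carry these 2 tissues from rats fed the low-fat or high-fat diet were taken, out of 31 arrays in the series. For every probe set the difference between tissues was computed as the change in BAT minus the change in the liver, where a change is the mean of the H-group minus the mean of the L-group on the log2 scale. A probe set was kept when its BAT value lay above 3.3 on at least 4 arrays, which left 12361 of 31042 non-control probe sets (39.8%). Of the kept probe sets, 11857 exceeded 3.3 on all 9 BAT arrays, none passed without an array of the L-group above 3.3, and 4 passed without an array of the H-group above it. Just inside the limit lay 19 probe sets with exactly 4 arrays above 3.3, and just outside it 87 with exactly 3.

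The study asked how the ratio of carbohydrate to fat in the diet shapes expression when the energy eaten is held equal. Male Wistar rats entered at 3 weeks of age and were fed for 9 weeks with a diet giving 65% of its energy as carbohydrate and 15% as fat (L-group, 5 rats, named L1 to L5) or 35% and 45% (H-group, 4 rats, named H12, H13, H15 and H16). The H rats received the energy that the L rats ate, and all rats were fasted for 17 h before the tissues were taken. RNA of each tissue was hybridized to an Affymetrix rat genome array, whose probe sets are short probes near the 3′ end of a transcript.

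Liver values were deposited after RMA and BAT values after GCRMA, each tissue normalized by itself, so the sizes of a change in the 2 tissues stand on different scales. Directions are therefore given beside the sizes and ranks for the main genes. The rank of a change is the percentile of its moderated t among the kept probe sets, with 0 for the most negative. The median change was 0.01 in BAT and 0.00 in the liver, and the median size of a change regardless of sign was 0.11 and 0.07. A lower signal in tissue RNA can come from fewer cells of a type or from less RNA per cell, and these arrays cannot tell the 2 apart. In the sentences below, values of single rats are given in the order L1 to L5 and then H12, H13, H15 and H16.

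Brown fat burns fatty acids in mitochondria that carry the uncoupling protein UCP1, and it makes fatty acids from glucose at a high rate. The liver makes fatty acids and cholesterol for export. In both tissues the enzymes of cholesterol synthesis are driven by the transcription factor SREBP-2 (Srebf2), and those of fatty acid synthesis by SREBP-1c (Srebf1) together with the sugar-sensing factor ChREBP (Mlxipl).

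The defining markers of brown fat were high on the BAT arrays, with exceptions. Ucp1 lay between 14.44 and 14.89 and Cidea, a protein of brown fat lipid droplets, between 14.50 and 14.79 on all 9 arrays. Zic1, another brown adipocyte marker, lay at the floor of the BAT scale, at or below 2.32 on every array, and so did Elovl3. Of 10 hepatocyte markers, 8 did not exceed 3.3 on any BAT array, while the probe set of Alb (albumin) read 12.62 to 13.36 there and that of Ttr (transthyretin) 3.68 to 4.34. Array medians of the kept probe sets ran from 6.89 to 6.94 in the liver and from 6.26 to 6.63 in BAT, and the lowest BAT median, 6.26, belonged to rat H16.

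Skeletal muscle markers divided the BAT arrays of the H-group. Of 15 markers with a probe set, 8 exceeded 3.3 in rats H13 or H15 alone, among them Acta1 (skeletal actin), Actn3, Ckm (muscle creatine kinase) and the fast troponins Tnnc2, Tnni2 and Tnnt3. Acta1 read 7.55 in H13 and 9.13 in H15 and stayed at the floor of 2.29 on the other 7 BAT arrays. The mean level of the 15 markers ranged from 3.92 to 4.12 in the L-group and from 4.15 to 6.75 in the H-group. Myh1, Mybpc2, Myl1 and Mb were above the floor on all 9 BAT arrays. Counts of calls are given below without rats H13 and H15 and with a score of the 15 markers in the fit. Neutrophil markers (2 genes) had a mean level of 3.75 to 4.23 in L rats and 4.03 to 5.17 in H rats in BAT, whereas 7 of 9 T and NK cell markers did not exceed 3.3 on any BAT array.

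**Figure D1:**
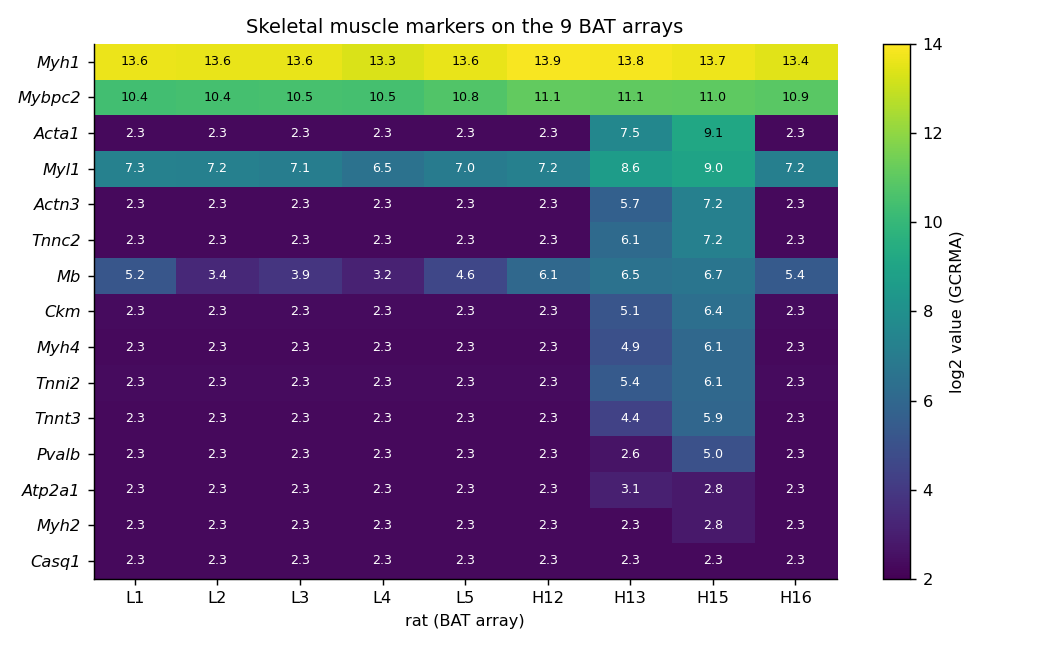
Log2 values (GCRMA) of 15 skeletal muscle markers (rows) on the 9 BAT arrays (columns, named by rat), with each value printed in its cell. Fast muscle genes such as Acta1 sit at the floor except in rats H13 (7.5) and H15 (9.1), whereas Myh1, Mybpc2, Myl1 and Mb are above the floor on every array.

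The change differed between BAT and liver for 67 of 12361 probe sets (0.542% of those tested) by limma with a Benjamini-Hochberg adjusted p under 0.05. These carried 54 distinct gene symbols, and 9 of the 67 had no single symbol. In 41 the change was lower in BAT than in the liver (0.332% of those tested) and in 26 it was higher (0.210%). The changes of the 2 tissues had opposite signs at 56 of the 67. Of these, 35 were lower in BAT and higher in the liver of H rats, and 21 the other way round. A further 7 were lower in both tissues and 4 higher in both. Over all 12361 probe sets the directions were opposed in 50.2%. A test of the difference favours opposed signs, so the share among the 67 is no separate result. The groups were apart in the liver at 22 of the 67 (4.16% of all probe sets) and in BAT at 52 (3.82%).

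The count depended on how the rats entered the fit. With the rat as a block, which compares the within-rat difference between the tissues, 1 probe set was called, that of Enpp5 (adjusted p = 0.00286), although all 67 had an unadjusted p of at most 0.00351 in that fit and 46 an adjusted p under 0.1. Leaving out 1 rat at a time gave 44 calls without L1, 22 without L2, 38 without L3, 25 without L4, 37 without L5, 74 without H12, 30 without H13 and 19 without H15. Without H16 there were 134 calls, of which 41 were lower and 93 higher in BAT, and with array weights, which gave the BAT array of H16 the least weight, 80 and 173. Without both H13 and H15, a choice made after seeing the muscle markers, 5 were called, 2 of them among the 67. With the rat as a block and the BAT score of the 15 muscle markers as a covariate 2 were called, 1 of them among the 67, with 0 sterol synthesis and 0 fatty acid synthesis genes. The sign of none of the 67 differences changed in any of these fits. The block by itself leaves each difference as it was, so no sign could change there. The other fits reuse the rats from which the 67 were picked, so the kept signs are no separate result.

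**Figure D2:**
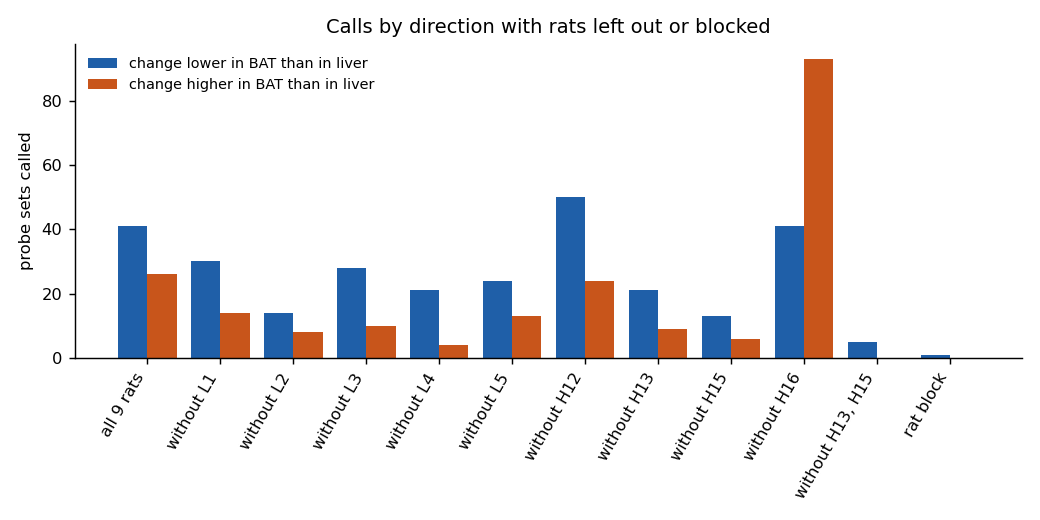
Number of probe sets called for a difference between tissues (vertical axis), split by direction, with all 9 rats, with 1 rat or rats H13 and H15 left out, and with the rat as a block. The 41 and 26 calls of all 9 rats became 41 and 93 without H16, 5 and 0 without H13 and H15, and 1 and 0 with the block.

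Within single tissues, DEGs were called by rank products at a false discovery rate under 0.05, run over all 31042 non-control probe sets. The counts below are of DEGs among the 12361 kept. On simulated arrays of the kept probe sets with the spreads of the BAT data, 67 of 200 calls by rank products were unchanged probe sets. The simulation held no liver arrays and no probe sets outside the rule, so it does not give the error rate of the calls here. These DEGs are therefore ranked candidates and not calls at a controlled error rate. BAT held 193 probe sets higher in the H-group (1.56% of the kept probe sets) and 397 lower (3.21%). The 193 became 72 without H12, 22 without H13 and 30 without H15, the last 2 being the rats with the muscle markers, and the 397 became 260, 228, 234 and 222 without L1, L2, L3 and L4. The liver held 92 higher (0.744%) and 134 lower (1.08%). The 92 became 44, 58, 42 and 43 without H12, H13, H15 and H16, and the 134 became 70, 57 and 85 without L1, L2 and L3. DEGs in both tissues, which came from the same rats, numbered 57. They were 9.66% of the BAT DEGs, where liver DEGs were 1.83% of all probe sets, and 25.2% of the liver DEGs, where BAT DEGs were 4.77% of all. Of these, 28 were lower and 14 higher in both, 8 were higher in BAT and lower in the liver, and 7 were lower in BAT and higher in the liver. By limma no probe set passed in either tissue alone (smallest adjusted p = 0.0701 in BAT and 0.0667 in the liver), with 1425 and 1452 at an unadjusted p under 0.05. Across probe sets the changes of the 2 tissues had a Pearson correlation of 0.0488 and a Spearman correlation of -0.00352, which describes these 12361 points and is no test.

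**Figure D3:**
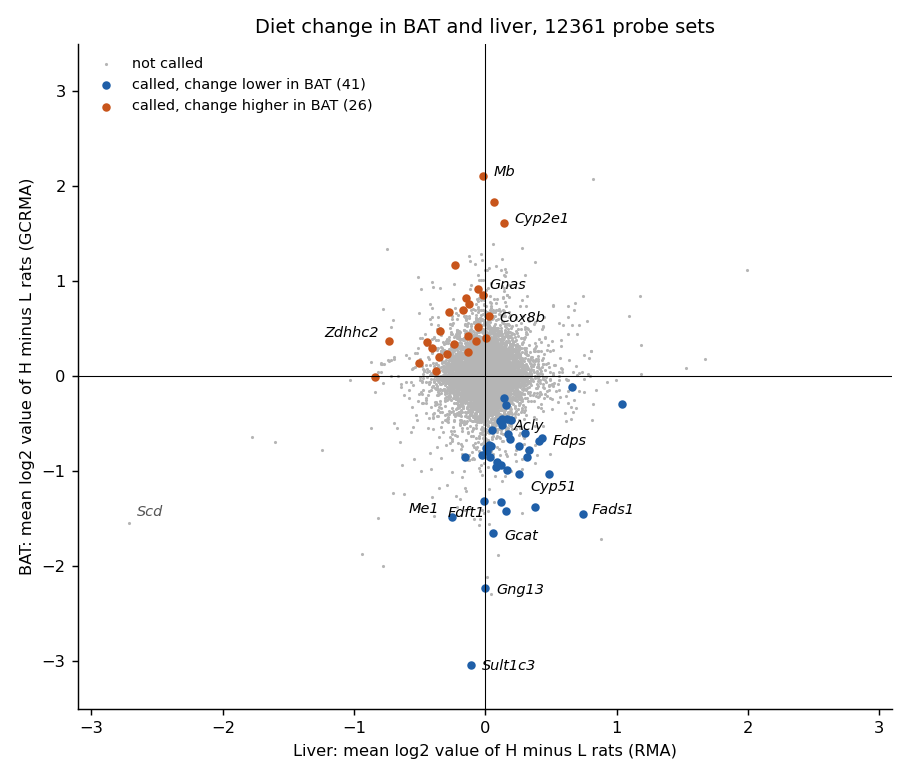
Diet change in the liver (horizontal axis, log2 H minus L, RMA) against that in BAT (vertical axis, log2 H minus L, GCRMA) for 12361 probe sets. The 41 called probe sets with a lower change in BAT lie mostly below 0 in BAT and slightly above 0 in the liver (Fads1, Cyp51, Fdps), while the 26 with a higher change in BAT lie mostly above 0 in BAT and slightly below 0 in the liver.

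Enzymes of cholesterol synthesis mostly had negative changes in BAT and positive, often small, changes in the liver of H rats. Of 21 listed enzymes, 18 had a probe set of their own in the annotation used here and 15 met the expression rule. In H rats 13 of these 15 were lower in BAT and higher in the liver, against 23.3% of all probe sets. At the brightest kept probe set of each, the BAT groups were apart and lower for 6 (1.8% of all). The liver groups were apart and higher for 1 (2.14% of all). By rank products 9 were lower DEGs in BAT (3.21% of all) and 3 were higher DEGs in the liver (0.744%). The tissue difference passed the test for 5 of the 15, all with the lower change in BAT, against 0.332% of all probe sets. The list was chosen with earlier results of these data known, so these shares describe it and are no test. The median change was -0.56 in BAT and 0.26 in the liver, and the median difference -0.72, against 0.02 over all probe sets. None of the 5 passed with the rat as a block. Without rats H13 and H15 no member passed, while all 15 differences were below 0 with a median of -0.66.

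Cyp51, the sterol 14-demethylase of the late pathway, had the lowest rank of all kept probe sets in BAT. Its BAT values were 6.10, 6.36, 5.99, 6.45 and 6.22 in L rats and 5.19, 5.02, 5.31 and 5.24 in H rats. The liver values were 8.26, 8.40, 9.01, 8.89 and 8.57 in L rats and 8.66, 9.19, 9.18 and 8.51 in H rats. The highest H value in BAT was below the lowest L value, whereas the liver groups overlapped. The change was -1.03 ± 0.10 (SE) in BAT and 0.26 ± 0.19 in the liver, a difference of -1.29 ± 0.23 (limma adjusted p = 0.0226, and 0.0698 with the rat as a block). With 1 rat left out the adjusted p ran from 0.0172 to 0.0893 and exceeded the threshold without L2, L5, H13 or H15.

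Fdft1 encodes squalene synthase, which commits farnesyl units to sterols. Its BAT values were 9.25, 8.49, 8.11, 8.73 and 8.13 in L rats against 7.09, 7.30, 7.23 and 7.25 in H rats. Liver values were 7.21, 7.09, 7.65, 7.52 and 7.52 against 7.09, 7.54, 7.96 and 7.49. The BAT groups were apart and the 4 H rats lay close together, while the liver groups overlapped. The difference was -1.45 ± 0.29 (limma adjusted p = 0.0338, 0.1 with the block, and 0.0307 to 0.118 with 1 rat left out, over the threshold without L1, L2, L4, H13 or H15). Its changes ranked at the 0.154 percentile in BAT and 69.9 in the liver. A second probe set of Fdft1 had the same directions and a difference of -0.61.

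Fdps, farnesyl diphosphate synthase, stands 1 step before Fdft1. It read 9.44, 9.82, 9.55, 9.49 and 10.11 in the BAT of L rats and 9.41, 9.10, 8.98 and 8.67 in that of H rats. In the liver it read 8.50, 8.49, 8.99, 8.81 and 8.76, and then 9.08, 9.39, 9.26 and 8.83. BAT groups were narrowly apart, and in the liver only H16 fell within the range of the L-group. The changes of -0.64 ± 0.18 in BAT and 0.43 ± 0.13 in the liver ranked at the 1.27 and 98.6 percentiles and gave a difference of -1.08 ± 0.23 (limma adjusted p = 0.0481, 0.0785 with the block). That call was kept only without H12 and without H16 when 1 rat was left out, with an adjusted p between 0.0351 and 0.164.

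Pmvk (phosphomevalonate kinase) and Nsdhl (a sterol dehydrogenase on the X chromosome) were the other enzymes of this pathway that passed. Pmvk differed by -0.62 ± 0.12 (limma adjusted p = 0.0294) and was lower in H rats in BAT without overlap, with a liver change of 0.05 ± 0.07 (percentiles 0.113 and 69.6). Nsdhl is read by 2 probe sets, which differed by -0.89 ± 0.17 and -0.85 ± 0.17 (limma adjusted p = 0.0270 and 0.0325). At the first of them the groups were apart in both tissues, with H rats at 6.53 to 6.85 against 6.91 to 7.64 in BAT and at 9.76 to 9.87 against 9.35 to 9.64 in the liver. With 1 rat left out the calls were lost without L2, L4, L5 or H13 for Pmvk, and without L2, L3, H13 or H15 for this probe set of Nsdhl. The second probe set of Nsdhl lost its call without L2, L4, L5, H13, H15 or H16.

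The remaining 10 enzymes did not pass. Dhcr7, which makes the last step to cholesterol, had a BAT change of -1.42 ± 0.40 and a liver change of 0.02 ± 0.10 (limma adjusted p = 0.141). Its BAT values of 7.66, 7.61, 7.02 and 5.67 in H rats all lay below the lowest L rat at 8.06. Idi1, isopentenyl diphosphate isomerase, had -0.34 ± 0.24 and 0.69 ± 0.27 (adjusted p = 0.257), and Msmo1, a methylsterol oxidase, -0.04 ± 0.07 and 0.63 ± 0.21 (adjusted p = 0.239). Both, like Acat2 at the start of the pathway, were DEGs in the liver by rank products and not in BAT, while Lss, Cyp51, Nsdhl, Ebp, Sc5d, Dhcr7, Pmvk, Fdps and Fdft1 were DEGs in BAT and not in the liver. Ggps1, which leads farnesyl units away from sterols, was near 0 in both tissues (0.05 and 0.02).

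Of 6 measured genes that sense and regulate sterols, none passed, where 0.542% of all probe sets did. The 2 transcription factors had changes of 0.22 ± 0.16 for Srebf1 and -0.07 ± 0.10 for Srebf2 in BAT, against 0.75 ± 0.16 and 0.21 ± 0.09 in the liver. Insig1, a sterol-regulated protein that holds the SREBPs in the endoplasmic reticulum, read 11.49, 12.48, 11.69, 12.13 and 11.95 in the BAT of L rats and 11.27, 10.64, 10.61 and 10.43 in that of H rats. Its groups did not overlap in BAT, where it was a DEG, and overlapped in the liver, where its change was -0.15 ± 0.27 (difference -1.06 ± 0.38, limma adjusted p = 0.232).

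Promoters of these genes are shown because most members had the same direction in BAT. RefSeq sequences of build GRCr8 were found for 19 of the 21 sterol synthesis and sterol sensing genes that met the expression rule, and 250 bases upstream of each start were searched on both strands. The core of the sterol regulatory element, TCACNCCAC with N for any base, was in none of the 19 and in 0.974% of 33469 promoters. Only this form was searched, in a single listed promoter of each gene. Other forms of the element were not searched, so these counts do not show that the promoters lack it. The CCAAT box, CCAAT or ATTGG on the other strand, was in 15 of 19 (78.9%) and in 34.0% of all promoters. A match is a run of letters and not a shown binding site. The stretches below run 5′ to 3′ on the strand of the gene over 160 bases, with CCAAT boxes in capitals. The stretch of Fdps holds 2 boxes, that of Nsdhl 4, that of the desaturase gene Fads1 1 and that of Cyp51 none.
Fdps, chr2:176804857-176805016, minus strand: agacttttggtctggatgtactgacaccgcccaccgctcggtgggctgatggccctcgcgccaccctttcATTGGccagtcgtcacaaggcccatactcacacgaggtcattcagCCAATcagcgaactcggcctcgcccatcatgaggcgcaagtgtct
Nsdhl, chrX:155817200-155817359, plus strand: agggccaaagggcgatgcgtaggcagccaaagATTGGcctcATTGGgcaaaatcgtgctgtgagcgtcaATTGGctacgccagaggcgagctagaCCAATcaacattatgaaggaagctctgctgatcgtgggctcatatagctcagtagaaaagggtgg
Fads1, chr1:216252532-216252691, plus strand: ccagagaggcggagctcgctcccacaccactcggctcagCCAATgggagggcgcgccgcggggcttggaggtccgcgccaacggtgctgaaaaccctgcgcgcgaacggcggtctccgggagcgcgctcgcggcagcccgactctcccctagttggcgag
Cyp51, chr4:30991533-30991692, plus strand: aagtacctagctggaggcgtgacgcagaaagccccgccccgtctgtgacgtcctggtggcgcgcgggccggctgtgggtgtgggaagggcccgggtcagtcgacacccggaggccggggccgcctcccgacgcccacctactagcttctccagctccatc

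Fatty acid synthesis, the NADPH supply for it and the desaturases were mostly lower in the BAT of H rats as well. Of 25 listed genes 23 had a probe set and 20 met the rule, and 18 of these 20 were lower in BAT (45.7% of all probe sets were), 12 of them DEGs by rank products (3.21% of all). In the liver 10 of 20 were higher, and 3 were DEGs there, Thrsp and Fads1 higher and Scd1 lower. The median change was -0.50 in BAT and -0.01 in the liver. The tissue difference passed for 5 of 20, Acly, Acss2, Fads1, Idh1 and Me1, all with the lower change in BAT (0.332% of all). These lists too were chosen with earlier results of these data known, so the shares are no test. Without rats H13 and H15 none of the 5 passed and the median difference of the 20 went from -0.56 to -0.49. Without H16 it was -0.43.

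Fads1, the delta-5 desaturase of polyunsaturated fatty acids, had the largest difference of the lipid synthesis genes. Its BAT values were 7.64, 6.87, 7.0, 7.12 and 6.60 in L rats and 6.17, 5.40, 5.44 and 5.41 in H rats. In the liver the values were 9.94, 9.12, 10.64, 9.95 and 9.87 against 10.65, 10.93, 10.75 and 10.26. All H rats lay below all L rats in BAT, and in the liver only H16 fell within the range of L rats. The change was -1.44 ± 0.24 in BAT and 0.74 ± 0.25 in the liver, a difference of -2.19 ± 0.36 (limma adjusted p = 0.0132, and 0.0509 with the block). It ranked at the 0.129 percentile in BAT and at the 97.9 percentile in the liver. The adjusted p was 0.0138 to 0.0699 with 1 rat left out, over the threshold without H13 or H15.

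Idh1, the cytosolic isocitrate dehydrogenase that yields NADPH, had the smallest adjusted p of all (0.00423 by limma, 0.0509 with the block). BAT values were 11.93, 11.79, 11.86, 11.91 and 11.97 in L rats and 11.52, 11.42, 11.39 and 11.45 in H rats. Liver values were 11.80, 11.80, 11.84, 11.85 and 11.80 and then 11.98, 11.91, 11.95 and 11.94. Both tissues separated the groups, in opposite directions. The changes were -0.45 ± 0.05 in BAT and 0.13 ± 0.04 in the liver, at the 0.0081 and 97.9 percentiles. This call was kept with each of the 9 rats left out (adjusted p 0.00698 to 0.0332) and not without H13 and H15 together (0.126).

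Acly, ATP citrate lyase, which supplies acetyl-CoA for both fatty acids and sterols, read 13.20, 13.29, 12.77, 12.92 and 13.31 in the BAT of L rats and 12.77, 12.19, 12.26 and 12.25 in that of H rats. In the liver it read 8.53, 8.38, 8.59, 8.50 and 8.69 against 8.51, 8.79, 8.87 and 8.99. H12 lay apart from the other H rats in both tissues, near the L-group. Ranks were 0.461 in BAT and 96.7 in the liver. The difference was -0.98 ± 0.19 (limma adjusted p = 0.0288, 0.115 with the block), and it was called without L3 and without H12 but not without any other rat. Acss2, which makes acetyl-CoA from acetate, differed by -0.77 ± 0.16 (adjusted p = 0.0370), with a BAT change of -0.73 ± 0.12 without overlap, and it too was called only without L3 and without H12.

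Me1, malic enzyme, another source of NADPH, had negative changes in both tissues. It read 12.97, 13.36, 12.99, 13.27 and 13.25 in the BAT of L rats and 12.32, 11.82, 11.58 and 11.02 in that of H rats. The change was -1.48 ± 0.23 in BAT and -0.25 ± 0.09 in the liver (difference -1.23 ± 0.25, limma adjusted p = 0.0374, kept only without H12 and without H16), with ranks at the 0.0971 percentile in BAT and 2.41 in the liver. Fasn, fatty acid synthase, is read by 2 probe sets. The brighter one had a BAT change of -0.45 ± 0.17 and did not pass (difference -0.61 ± 0.19, adjusted p = 0.174), and the other one did (-1.11, adjusted p = 0.0390, kept without L3, H12 or H16). Liver group means of that other probe set were low, 3.95 in L and 4.28 in H rats. The BAT values of the brighter probe set reached 15.30, close to the highest BAT value of 15.71. Slc25a10, the mitochondrial dicarboxylate carrier, was named after its values were seen, with 7.78, 8.25, 7.78, 8.59 and 7.84 in the BAT of L rats and 7.01, 6.26, 6.45 and 6.79 in that of H rats (difference -1.58 ± 0.24, limma adjusted p = 0.00900, kept with each rat left out).

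Scd1 (Scd on the array), the stearoyl-CoA desaturase that makes monounsaturated fatty acids, was lower in both tissues. The BAT values were 14.72, 14.80, 14.66, 14.90 and 14.80 in L rats and 13.81, 13.66, 12.85 and 12.59 in H rats. The liver values were 11.63, 10.63, 11.07, 11.80 and 10.92 and then 10.43, 8.23, 6.57 and 8.75. The groups were apart in both tissues. Changes of -1.55 ± 0.25 and -2.71 ± 0.62 ranked at the 0.121 and 0.340 percentiles, and the difference of 1.17 ± 0.72 did not pass (limma adjusted p = 0.529). Acaca, acetyl-CoA carboxylase, and Elovl6, an elongase, were lower in both tissues (-0.62 and -0.97 in BAT, -0.23 and -0.41 in the liver) without a difference that passed.

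**Figure D4:**
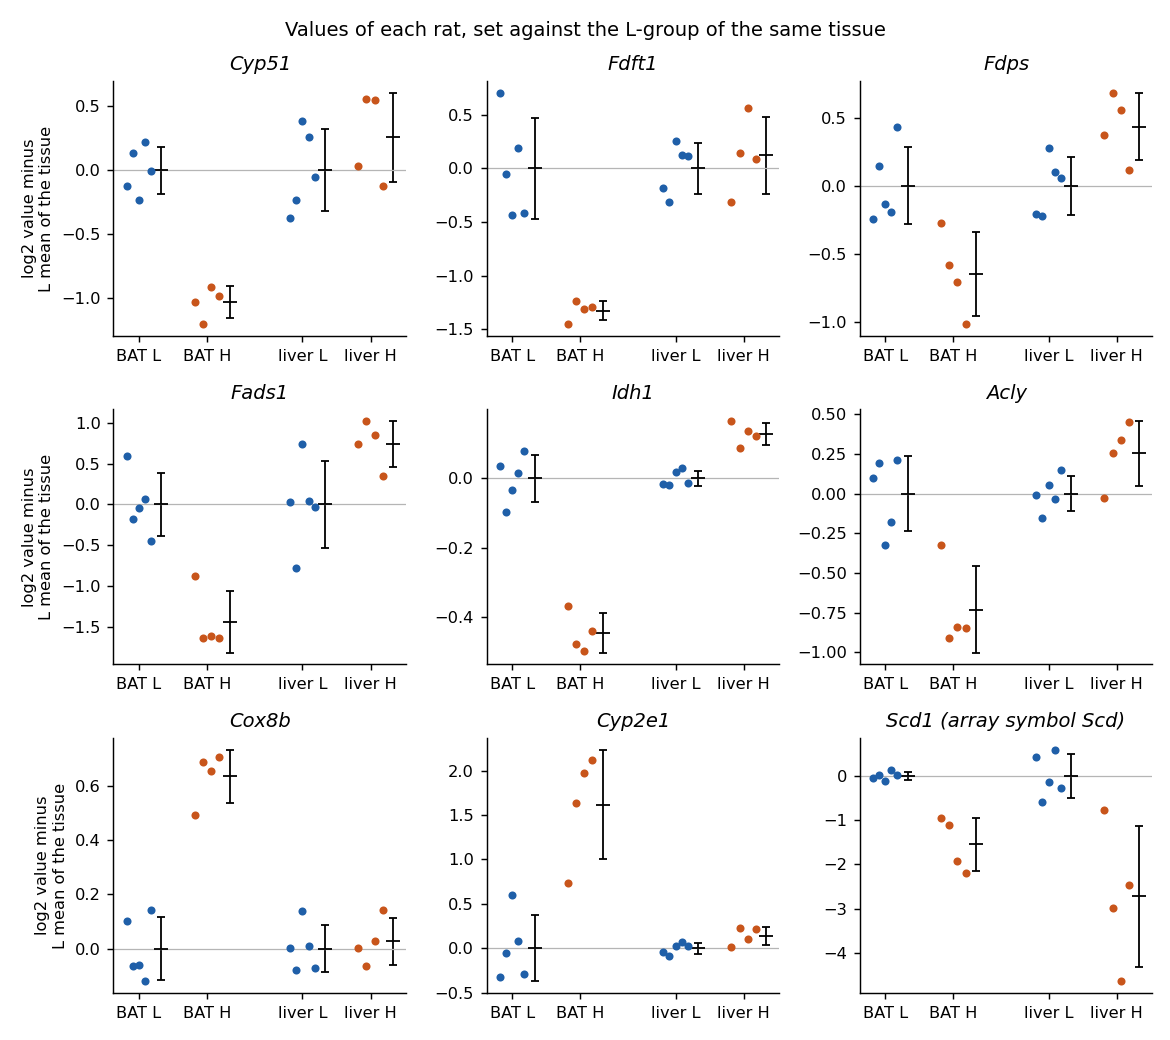
Log2 value of each rat minus the mean of the L-group of the same tissue (vertical axis) for 9 genes, with points for rats (blue L, orange H, in the order of the rat numbers) and black bars for the mean ± SD (n = 5 and 4). Cyp51, Fdft1, Fdps, Fads1, Idh1 and Acly are lower in BAT and not in the liver of H rats, Cox8b and Cyp2e1 are higher in BAT, and Scd1 is lower in both.

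Of 15 measured subunits of oxidative phosphorylation 14 had a positive change in BAT. So did 14 of 17 enzymes of beta-oxidation and 53.5% of all probe sets. No member of either list was called for a tissue difference, where 0.542% of all probe sets were. The median changes in BAT were 0.06 and 0.11. In the liver the medians were 0.00 and -0.02. Other mitochondrial proteins had negative changes in BAT, among them the carriers Slc25a10 (-1.42) and Mpc1 (-0.32) and the enzyme Gcat (-1.65). Among single genes outside these lists, Ndufa5 and Ndufs7, subunits of complex I, and Ndufaf8, an assembly factor of it, passed with differences of 0.45 ± 0.08, 0.39 ± 0.08 and 0.55 ± 0.12 (limma adjusted p = 0.0253, 0.0375 and 0.0428). Ndufa5 read 10.49, 10.51, 10.56, 10.37 and 10.64 in the BAT of L rats and 10.84, 10.99, 10.89 and 10.83 in that of H rats. With 1 rat left out Ndufa5 stayed under the threshold without L5, H12 or H16, and Ndufs7 and Ndufaf8 only without H16.

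Cox8b, the subunit of cytochrome oxidase found in muscle and brown fat, was the only called gene of 10 thermogenesis genes and had the highest rank of all probe sets in BAT. It read 13.76, 13.59, 13.59, 13.54 and 13.80 in the BAT of L rats and 14.15, 14.35, 14.31 and 14.36 in that of H rats. Liver values lay between 2.69 and 2.92 in all rats, near the low end of the liver scale at 1.88. Its BAT groups did not overlap, and the change was 0.63 ± 0.07 (difference 0.61 ± 0.10, limma adjusted p = 0.0132, 0.0756 with the block, over the threshold without H13 or H15). Without H13 and H15 together the difference was 0.52 (adjusted p = 0.266), and the part of muscle RNA in it was not tested further. Ucp1 itself had a change of 0.20 ± 0.08 in BAT (adjusted p of the difference 0.675). Ppargc1b, a coactivator of mitochondrial genes, was higher in both tissues, by 0.75 ± 0.10 without overlap in BAT and by 0.52 ± 0.18 in the liver, and was a DEG in both.

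Muscle and vessel genes were among the calls. Mb (myoglobin), which binds oxygen in muscle and is also made in brown fat, read 5.23, 3.37, 3.86, 3.17 and 4.58 in the BAT of L rats and 6.07, 6.50, 6.65 and 5.39 in that of H rats (difference 2.13 ± 0.46, limma adjusted p = 0.0481, kept only without L1 and without H16). Mybpc2, a myosin-binding protein, had 10.38 to 10.75 and 10.91 to 11.14 (0.58 ± 0.11, adjusted p = 0.0294, kept without L5, H12 or H16), and its second probe set differed by 0.86 ± 0.19. At the first probe set of each, all 4 H rats lay above all 5 L rats. Without H13 and H15, the rats with 8 further muscle markers, the differences were 1.64 for Mb and 0.58 for Mybpc2 (limma adjusted p = 0.482 and 0.293). Myh11, the smooth muscle myosin, read 9.02, 8.60, 8.70, 8.32 and 8.55 against 7.86, 7.61, 7.79 and 7.58 in BAT, without overlap (difference -1.05 ± 0.16, limma adjusted p = 0.00900, kept with each rat left out). Of 6 smooth muscle markers it alone was called, and their mean level ranged from 5.89 to 6.75 in L rats and from 5.98 to 6.17 in H rats. Mcam, an adhesion protein of vessel walls, named after its values were seen, differed by -0.88 ± 0.13 and -0.80 ± 0.16 at its 2 probe sets (limma adjusted p = 0.00900 and 0.0293), the first kept with each rat left out and the second only without L3, H12 or H16. Liver group means (L, then H) were low for Mb (2.87 and 2.85) and for the first probe sets of Mybpc2 (3.55 and 3.49) and Mcam (2.81 and 2.84). They were 3.73 and 3.74 at the second probe set of Mcam and 4.75 and 4.87 for Myh11. The part of smooth muscle RNA in the differences of Myh11 and Mcam was not tested.

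Among the largest differences with the lower change in BAT were those of Sult1c3 and Gng13, which had low values in 1 of the tissues, and of Gcat, which did not. Sult1c3, a sulfotransferase, read 6.01, 6.52, 5.74, 7.77 and 5.83 in the BAT of L rats and 3.68, 3.68, 3.68 and 2.29 in that of H rats, the last at the floor of the scale. In the liver it lay between 12.30 and 12.52 in all rats. The difference was -2.92 ± 0.48 (limma adjusted p = 0.0132), kept with each of the 9 rats left out. Gng13, a G protein subunit, had a BAT change of -2.23 ± 0.40 and liver values of 3.00 to 3.46 (adjusted p = 0.0226, over the threshold without L2, H13 or H15). Gcat, which breaks down threonine products in mitochondria, read 8.44, 8.44, 8.02, 7.81 and 8.43 against 6.68, 6.96, 6.51 and 6.16 in BAT, with a liver change of 0.06 ± 0.16 (difference -1.71 ± 0.26, adjusted p = 0.00900, kept with each rat left out).

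Cyp2e1, an ethanol- and ketone-oxidizing cytochrome P450, had the second largest difference with the higher change in BAT among the called probe sets that have a symbol. It read 5.83, 6.10, 6.75, 6.23 and 5.86 in the BAT of L rats and 6.89, 7.79, 8.13 and 8.27 in that of H rats, without overlap. Liver values of 13.20 to 13.35 and 13.29 to 13.50 overlapped. The difference was 1.48 ± 0.31 (limma adjusted p = 0.0394, kept without L3 or H12 only), with ranks of 99.8 in BAT and 94.7 in the liver. The mean level of all 10 hepatocyte markers in BAT ranged from 3.52 to 3.60 in L rats and from 3.48 to 3.58 in H rats. Alb had group means of 13.17 and 13.10 there and Ttr of 3.90 and 3.89, and the other 8 did not exceed 3.3. The part of liver RNA in the values of Cyp2e1 was not tested.

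Prps2, which makes the ribose phosphate donor for nucleotides, had groups apart in both tissues. Its BAT values were 8.98, 9.73, 8.91, 9.44 and 9.61 in L rats and 8.75, 8.51, 7.78 and 8.19 in H rats. The liver values were 6.95, 6.88, 7.02, 7.02 and 7.14 and then 7.44, 7.52, 7.38 and 7.61. Changes of -1.03 ± 0.24 and 0.49 ± 0.07, at the 0.720 and 99.98 percentiles, gave a difference of -1.51 ± 0.25 (limma adjusted p = 0.0132), kept with each rat left out, and a second probe set was called as well. Pxdn, a peroxidase that crosslinks collagen IV, and Nmt1, an N-myristoyltransferase, likewise separated the groups in opposite directions (differences of -0.78 ± 0.13 and -0.37 ± 0.08, adjusted p = 0.0132 and 0.0394). Pxdn lost its call without L2 or L4, and Nmt1 whichever of the 9 rats was left out. Another kept probe set of each was not called (differences of -0.70 for Pxdn and -0.29 for Nmt1), and that of Nmt1 was lower in the liver of H rats.

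Of called genes that were higher in BAT and lower in the liver, only Ndufs7 had groups apart in both tissues. Gnas, the stimulatory G protein subunit through which noradrenaline signals in brown fat, read 8.21, 7.51, 8.08, 7.74 and 8.21 in the BAT of L rats and 8.82, 8.82, 8.95 and 8.90 in that of H rats (difference 0.98 ± 0.17, limma adjusted p = 0.0148, over the threshold without H13 or H15). Its liver values ran from 5.27 to 5.57, and its ranks were 99.9 in BAT and 27.4 in the liver. Vezf1, a zinc finger protein, and Aff4, a scaffold of transcription elongation, differed by 0.56 ± 0.10 and 0.97 ± 0.20 (adjusted p = 0.0253 and 0.0374), and Sh3bp5 by 0.58 ± 0.12 (0.0421). Zdhhc2, a palmitoyltransferase, differed by 1.11 ± 0.20 (0.0209), with groups apart in the liver and overlapping in BAT. Of these 4, Vezf1 stayed under the threshold without L2, H12, H15 or H16, Aff4 without L1 or H16, Sh3bp5 without H13 alone and Zdhhc2 without L1, L3, H12 or H16. Only 1 of 4 kept probe sets of Vezf1 was called, and 1 of 3 for Aff4 and for Gnas. Their differences ran from 0.15 to 0.66, from 0.06 to 0.97 and from 0.17 to 1.21.

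Enpp5, a phosphodiesterase family member and the gene called with and without the rat as a block, was named after its values were seen. It read 10.77, 11.17, 11.12, 10.85 and 11.09 in the BAT of L rats and 10.91, 10.80, 10.69 and 10.46 in that of H rats. In the liver it read 6.09, 6.62, 6.52, 5.90 and 6.40 against 7.61, 7.25, 7.40 and 7.11. The groups overlapped in BAT and were apart in the liver. Its change was -0.29 ± 0.12 in BAT and 1.04 in the liver (difference -1.33 ± 0.21, limma adjusted p = 0.00900). With each of the 9 rats left out the adjusted p ran from 0.0146 to 0.0488, and without H13 and H15 together it was 0.169.

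Some genes had groups apart and the same direction in both tissues. Higher in H rats without overlap in both tissues were 4 named genes, Pla2g12a, Epb41, Gars1 and Plaat3, from 5 probe sets or 0.0404% of all, where 2.02% were apart and higher in BAT and 2.14% in the liver. Their changes were 0.44, 0.74, 0.27 and 0.74 in BAT and 0.32, 0.27, 0.18 and 0.63 in the liver. Lower without overlap in both were 7 probe sets (0.0566% of all, where 1.8% were in BAT and 2.02% in the liver), led by Scd1 and followed by Enpep, Mpc1, Araf and Slk. Mpc1, a subunit of the carrier that takes pyruvate into mitochondria, read 13.17 to 13.35 and 12.70 to 13.04 in BAT and 11.28 to 11.49 and 11.13 to 11.22 in the liver. Of these 9 genes Slk alone had a difference that passed (-0.69 ± 0.14, limma adjusted p = 0.0374, kept only without L3 and without H16), and its liver values, 3.08 to 3.39, were near the low end of the scale. Not every probe set of these genes had the same direction. Another kept probe set of Epb41 was lower in BAT. Of the kept probe sets, 1 of 2 for Araf was lower in BAT, and 1 of 2 for Slk in each tissue.

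Extreme ranks in both tissues were counted as well. Among the 12361 probe sets, 45 lay in the lowest 5% in BAT and the highest 5% in the liver, 32 in the highest 5% in BAT and the lowest 5% in the liver, 45 in the lowest 5% of both and 32 in the highest 5% of both. These are 0.364%, 0.259%, 0.364% and 0.259% of all, and 5% of 5% is 0.25%. Ranked by the log2 change itself, the 4 counts were 58, 53, 78 and 64.

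Other lists held no called gene, with the exception of Pxdn among 13 collagens and matrix genes. Since 0.542% of all probe sets were called, lists this short would mostly hold none, so this is no result about them. Targets of PPAR alpha, the fatty acid sensor, were lower in the liver with a median of -0.56 over 6 genes, against -0.20 in BAT. Pex11a, which divides peroxisomes, had 0.60 ± 0.24 in BAT and -0.42 ± 0.27 in the liver (limma adjusted p of the difference 0.247). Of 8 genes on the night-phase clock list, whose peak times were not measured here, 6 were higher in both tissues, as were 27.0% of all probe sets. Per2 and Dbp were DEGs in both (0.58 and 0.64 in BAT, 0.77 and 1.10 in the liver). The paper lists Per2 among genes that were lower in the liver of the H-group, the opposite direction. Bcl6, a repressor, was also a DEG in both (1.12 ± 0.37 and 2.0 ± 0.40), and Cish, a feedback inhibitor of cytokine signals, was lower in both (-1.87 and -0.94). Triacylglycerol synthesis (9 genes), lipolysis and lipid droplets (12), fatty acid uptake and activation (10), insulin signalling (8), heat shock chaperones (8) and endoplasmic reticulum stress (10) had median differences of 0.19, 0.10, 0.00, 0.22, -0.22 and -0.17. Interferon response genes (6), immediate early genes (13), ketone body genes (3), genes of the day-phase clock list (3) and growth hormone targets (4) had -0.30, -0.15, 0.15, 0.34 and -0.79.

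**Figure D5:**
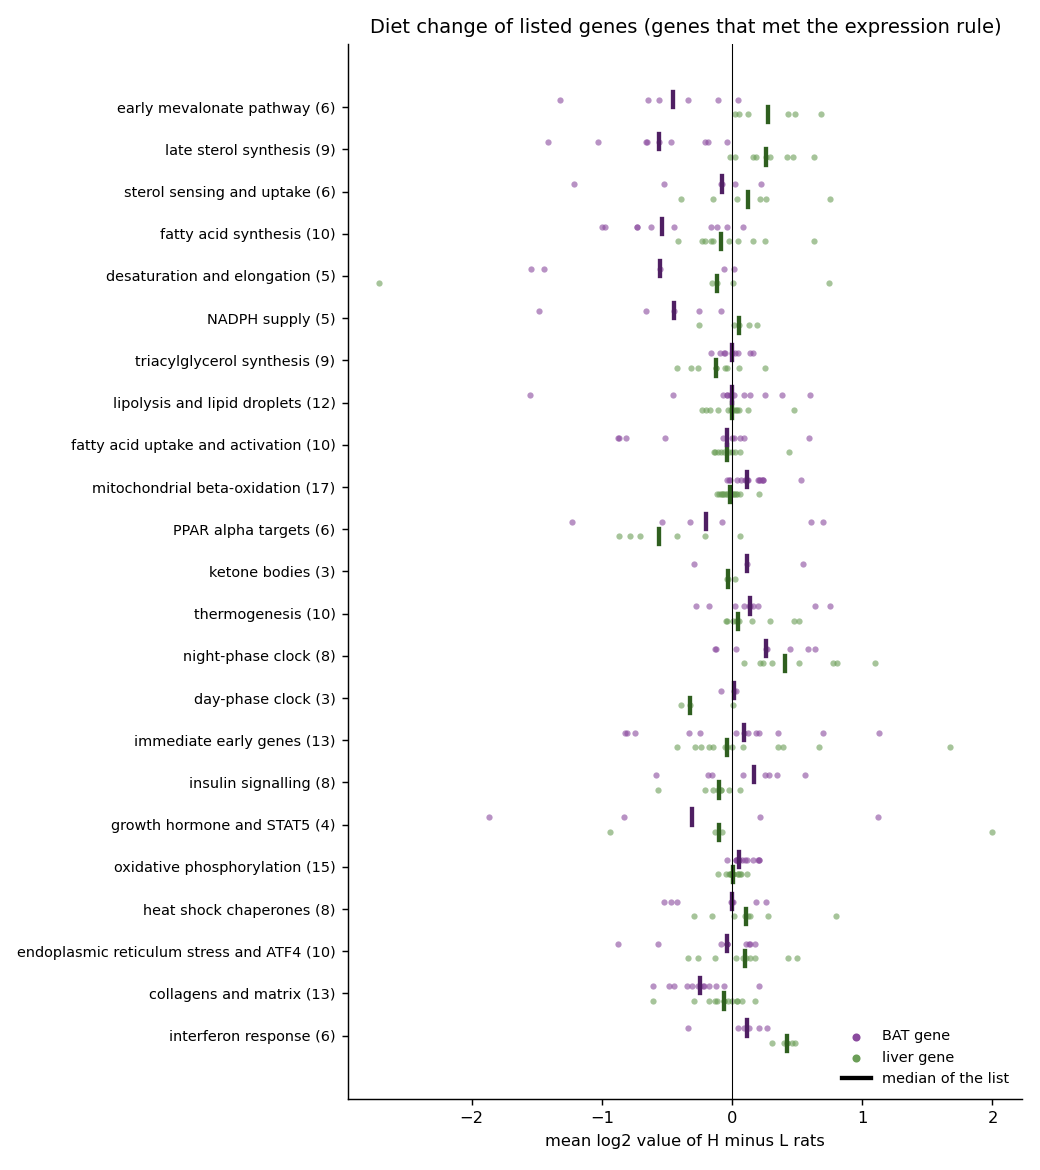
Change of every listed gene that met the expression rule (log2 H minus L, horizontal axis) in BAT (purple) and liver (green), grouped by list (vertical axis, number of genes in brackets), with thick lines for the median of a list. The medians of the early mevalonate pathway are -0.45 in BAT and 0.28 in the liver, and those of late sterol synthesis -0.56 and 0.26. BAT medians are also low for fatty acid synthesis (-0.53), desaturation and elongation (-0.55) and NADPH supply (-0.45). Liver medians lie away from 0 for PPAR alpha targets (-0.56), interferon response (0.42) and the night-phase clock list (0.41), among others.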

How the data were processed

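Liver, white and brown adipose RNA of the rats was measured on Affymetrix arrays, and the 13 arrays of other groups or tissue were not used here. The authors deposited log2 values, made with RMA for liver and GCRMA for BAT. Groups follow the diet and tissue in the labels, and rat numbers pair the tissues (correlation of deviations 0.0701 to 0.215).

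The main test was limma 3.58.1 (R 4.3.3) on 4 group means over 18 arrays without a rat block, with Benjamini-Hochberg adjustment over 12361 probe sets. Rank products used 100 permutations, and within a tissue they were run over all 31042 non-control probe sets. Both were tested on simulated data, where limma recovered most changes of 1 or more on the log2 scale. Of 67 changes of 0.5 it found 25 without the rat block and 14 with it. Those arrays were changed in BAT alone and had no link between the tissues of a rat, unlike the data. Rank products exceeded their stated false discovery rate. Of the kept probe sets, 10057 had 1 symbol in the platform annotation, 281 several and 2023 none. A listed gene was represented by its brightest kept probe set.

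Named genes were called genes with opposed directions and groups apart in both tissues (up to 8 a direction, overlap in the liver allowed where under 4 met this), genes apart in the same direction (up to 5 higher and 5 lower), up to 3 of each list with the smallest p of the difference, genes that the study discusses, and the 5 largest called differences each way. Slc25a10, Myh11, Mcam and Enpp5 were named after their values were seen. Members, lists and rule were chosen with earlier results of these data known. Each array of a group is a different rat, and the number of arrays limits the precision.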

Additional observations from a re-analysis of the deposited data

Results flagged for a closer look

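Of 428 groups of 4 or 5 rats at 107 named probe sets, 34 held 1 rat far from the others by Dixon's criterion, which chance alone meets in about 1 of 20 groups. In the BAT of L rats these were Vezf1 in L4 (5.61 against 5.71), Epb41 in L4 (4.88 against 5.55 to 5.73), Dgat2 in L5 (13.73 against 13.61 to 13.63) and Aqp7 in L1 (12.12 against 12.39 to 12.46). Further values there were Cox7a1 in L2 (2.98 against 3.41), Nr1d1 in L3 (4.41 against 4.95 to 5.06), Per3 in L3 (3.95 against 4.70 to 4.84) and Id1 in L2 (8.10 against 9.79 to 10.17). Further values there were Mx1 in L2 (3.44 against 3.41), Msmo1 in L2 (5.70 against 5.55), Srebf2 in L3 (6.75 against 6.59 to 6.62) and Zdhhc2 in L4 (3.85 against 4.12 to 4.17). In the BAT of H rats these were Ndufaf8 in H16 (7.74 against 8.08 to 8.09), Mpc1 in H16 (12.70 against 12.998 to 13.04), Nsdhl in H12 (8.58 against 8.21 to 8.25) and Acly in H12 (12.77 against 12.19 to 12.26). Further values there were Fads1 in H12 (6.17 against 5.40 to 5.44), Pdk4 in H16 (12.43 against 13.24 to 13.38), Nr1d1 in H13 (4.74 against 4.95) and Per3 in H16 (5.53 against 4.59 to 4.70). Further values there were Cry1 in H16 (4.46 against 4.51), Myc in H16 (5.19 against 4.73 to 4.76), Sult1c3 in H16 (2.29 against 3.68) and Gng13 in H13 (3.88 against 4.51 to 4.61). In the liver of L rats these were Gnas in L2 (5.57 against 5.35 to 5.38), Slc27a2 in L3 (13.11 against 12.96 to 12.99), Ppara in L2 (3.75 against 4.45 to 4.65) and Id1 in L4 (5.81 against 6.09 to 6.19). In the liver of H rats these were Ndufs7 in H12 (9.69 against 9.86 to 9.88), Pmvk in H13 (6.65 against 6.41 to 6.43), Insig1 in H16 (7.13 against 8.10 to 8.23) and Etfdh in H15 (10.11 against 10.33 to 10.36). Further values there were Pdk4 in H16 (8.23 against 9.60 to 9.68) and Prps2 in H16 (7.19 against 6.81 to 6.87).

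The change differed between the tissues at 31 named probe sets by the limma test of the difference itself. It was lower in BAT for Prps2 (-1.51), Nsdhl (-0.89), Idh1 (-0.57), Nmt1 (-0.37), Pxdn (-0.78), Slk (-0.69), Pmvk (-0.62), Fdft1 (-1.45), Fdps (-1.08), Cyp51 (-1.29), Nsdhl (-0.85), Acly (-0.98), Acss2 (-0.77), Fads1 (-2.19), Me1 (-1.23), Sult1c3 (-2.92), Gng13 (-2.23), Prps2 (-1.75) and Gcat (-1.71). It was higher in BAT for Vezf1 (0.56), Sh3bp5 (0.58), Ndufs7 (0.39), Ndufaf8 (0.55), Aff4 (0.97), Ndufa5 (0.45), Gnas (0.98), Mybpc2 (0.58), Cox8b (0.61), Mb (2.13), Cyp2e1 (1.48) and Zdhhc2 (1.11). The values in brackets are the change in BAT minus that in the liver on the log2 scale.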

How the results depend on the processing

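No call among the 67 changed sign under any alternative, but their number moved. The block alone, the stricter threshold and the other filters leave each difference as it was, so its sign was fixed there. In the paired analysis, with the rat as replicate block, 1 difference was called (1 lower, 0 higher, 1 with opposite directions), with 0 sterol and 0 fatty acid genes, and with a BAT muscle score added 2, 2, 0, 2, 0 and 0. In the same order, centring arrays on their medians gave 122, 78, 44 and 107. Dividing each tissue by its median SD gave 38, 24, 14, 33, 0 and 3, an adjusted p under 0.01 gave 9, 8, 1, 8, 0 and 1, and array weights 253, 80, 173 and 211. Rank products on within-rat differences gave 228, 145, 83 and 165, and leaving out H13 and H15, chosen after seeing the data, 5, 5, 0, 4, 0 and 0. Joint quantile normalization called 3 sterol genes, all non-control probe sets 3 sterol and 3 fatty acid genes, and a joint filter, over 5 in BAT and a liver mean above the median, 17 higher.

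With 1 rat left out there were 19 to 134 calls, 13 to 50 lower, 4 to 93 higher, 17 to 116 with opposite directions, 0 to 5 sterol and 1 to 6 fatty acid genes. DEGs by rank products then ranged from 22 to 213 higher and 222 to 444 lower in BAT, and from 42 to 115 and 57 to 167 in the liver. The limma test gave 0 in each. Ranking by fold gave 53, 78 and 64 probe sets in the corners BAT highest and liver lowest, lowest in both and highest in both. Insulin signalling moved to a median of -0.11 without H13 and H15.

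None of the differences that reversed had been called. They reversed under another scale or normalization, or with rats left out. Dividing by the SD gave -0.40 for Pla2g12a, -0.12 for Gars1, -1.49 for Plaat3, -0.48 for Ppargc1b and 1.78 for Pik3r1. Quantile normalization gave -0.12 for Plaat3 and 0.11 for Pik3r1. Without H13 and H15 Gars1 had -0.0046, Srebf2 0.054 and Per2 0.12. With 1 rat left out Cry1 ran from -0.26 to 0.063, Mx1 ran from -0.70 to 0.022, Elovl5 ran from -0.064 to 0.14, Pik3r1 ran from -0.11 to 0.16 and Per2 ran from -0.41 to 0.17. The cause was not tested. Of the 31 named calls, 14 were kept after division by the SD and 22 after quantile normalization.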
